A study of Homo sapiens with 2 samples.

Results

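The C1Q-negative cells of blood-generating heart-forming organoids (BG-HFOs) were 100 of the 34749 cells that passed the cell filter, 66 in organoid 32.7 and 34 in organoid 33.10. They were selected on raw counts of unique molecular identifiers (UMIs), each of which stands for 1 captured transcript molecule. A cell had to hold at least 2 UMIs of PTPRC, which encodes the pan-leukocyte protein CD45, and at least 1 UMI of ITGAM and CD14 together, the genes for the integrin CD11b and a receptor for bacterial lipopolysaccharide. It could hold at most 1 UMI of the complement genes C1QA, C1QB and C1QC together, at most 2 of MPO (myeloperoxidase), none of EPX (eosinophil peroxidase), at most 3 of CLC (the Charcot-Leyden crystal protein), none of the endothelial cadherin CDH5 and at most 3 of the cardiac myosin gene MYH6. Its level of the platelet chemokine PF4 had to lie below 2000 counts per 1000000 UMIs of the cell (CPM). The cell filter kept barcodes with 500 to 9000 genes and under 15% mitochondrial UMIs. The genes of this rule are given below as a description, with no test. All other genes were read from the same cells, so a gene that varies together with a rule gene from cell to cell cannot be told apart from the selection.

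Both organoids were BG-HFOs of day 14, made from the human embryonic stem cell line hES3 NKX2.5-eGFP, which carries a green fluorescent reporter of the cardiac gene NKX2.5. Stem cell aggregates were embedded in Matrigel and co-differentiated into heart and blood tissue by switching the WNT pathway on with CHIR99021 and off with IWP2, with haemato-endothelial growth factors and cytokines added. Each organoid was dissociated on its own and captured as 1 droplet library of 3′ transcript ends. The data thus held 2 organoids of 1 condition and 1 cell line, and every comparison below is between cell classes within the same 2 organoids.

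Monocytes are circulating phagocytes that arise from myeloid progenitors, leave the blood and can become macrophages in tissues. In embryos the earliest macrophages come from the yolk sac and settle in organs, among them the heart, where many express the C1q subunits of the classical complement pathway. Monocytes and neutrophils share the calcium-binding alarmins S100A8 and S100A9, which form calprotectin, and the bacteriolytic enzyme lysozyme (LYZ). MPO fills the primary granules of neutrophil precursors, whereas EPX, CLC and the major basic protein PRG2 belong to eosinophils.

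The C1Q-negative cells were rare in both organoids. They made up 0.422% of filtered cells in organoid 32.7 (66 of 15632, exact Clopper-Pearson 95% interval 0.327 to 0.537) and 0.178% in organoid 33.10 (34 of 19117, 0.123 to 0.248), a mean of 0.30% ± 0.173 (SD, n = 2). All intervals here cover counting error only. Among the cells with at least 2 PTPRC UMIs the shares were 5.52% of 1196 (4.29 to 6.97) and 5.48% of 620 (3.83 to 7.58), so the organoids differed in how many CD45-positive cells they held and not detectably in the C1Q-negative fraction of them. Of the 1816 cells with at least 2 PTPRC UMIs, 1203 also held ITGAM or CD14, 327 of these had at most 1 C1Q UMI, 168 of those stayed under the MPO limit and 125 under the EPX and CLC limits. The limits on CDH5, MYH6 and PF4 then left 108, 102 and 100 cells.

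The same rule with 1 condition turned around gave the classes used for comparison. C1Q-positive cells had at least 2 C1Q UMIs (390 and 223 cells in organoids 32.7 and 33.10), MPO-high cells at least 3 MPO UMIs (102 and 22 cells), and EPX/CLC cells at least 1 EPX or 4 CLC UMIs (22 and 12 cells). Described beside them without a test were other CD45-positive cells with no ITGAM or CD14 UMI (78 and 105) and MYH6-high cells (1018 and 1308), which held at least 10 MYH6 UMIs and none of PTPRC or CDH5. The MYH6-high cells serve as a background for blood transcripts. Their levels can hold free RNA, RNA of doublets (Scrublet marked 16.4% and 24.8% of them, against 10.6% and 11.8% of C1Q-negative cells) and, for genes such as VCAN and the collagens, their own expression, which cannot be told apart here.

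Depth differed within and between the classes. The C1Q-negative cells held a median of 10966 UMIs and 3396 genes in organoid 32.7 (1404 to 61401 UMIs) and of 12465 UMIs and 4196 genes in organoid 33.10 (841 to 69809 UMIs). Their median mitochondrial share was 5.27% in both. Median UMIs were 16547 and 15021 in C1Q-positive cells, 16564 and 15402 in MPO-high cells, 11021 and 31093 in EPX/CLC cells, and 13269 and 14219 in MYH6-high cells. Summed over cells, the C1Q-negative cells held 980319 and 566762 UMIs. The libraries shared 100 barcode sequences, and 1 C1Q-negative cell of each library carried such a barcode.

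Many C1Q-negative cells lay near a limit of the rule. Of the 100 cells, 70 held no C1Q UMI and 30 held 1, while 18 C1Q-positive cells held exactly 2 and 552 of 613 held 5 or more. MPO was 0, 1 and 2 in 73, 17 and 10 C1Q-negative cells, and 24 of the 124 MPO-high cells held 3 to 5. PTPRC was at its minimum of 2 in 18 cells and at 3 in 24, and 34 cells held a single UMI of ITGAM and CD14. Just outside, 42 cells met every other condition with 1 PTPRC UMI and 206 with none. Shallow cells could fall under a limit: after thinning each cell to 5000 UMIs, 10.6% (39 of 368, 7.65 to 14.2) and 13.2% (27 of 205, 8.86 to 18.6) of C1Q-positive cells had at most 1 C1Q UMI. For MPO-high cells, 23.5% (23 of 98, 15.5 to 33.1) and 9.09% (2 of 22, 1.12 to 29.2) had at most 2 MPO UMIs after thinning. Cells of the neighbouring classes could thus enter at low depth, and 22 of the 100 C1Q-negative cells held under 5000 UMIs.

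The name monocytic held for part of these cells only. CD14 was detected in 26 of the 100 cells, 13 in each organoid, and ITGAM in 86 (60 and 26). By marker, 74 cells held ITGAM alone, 14 held CD14 alone and 12 held both. CD14 stood at 21.4 CPM in organoid 32.7 and 49.4 CPM in organoid 33.10, against 525 and 632 CPM in C1Q-positive cells, of which 537 of 613 held a CD14 UMI. CD14 is a gene of the rule, so these values describe the cells as selected. PTPRC stood at 646 and 293 CPM and ITGAM at 200 and 113 CPM, both higher in organoid 32.7. In GRCh38 coordinates of the GENCODE v44 annotation, PTPRC lies at chr1:198638457-198757476 and ITGAM at chr16:31259967-31332892 on the plus strand, and CD14 at chr5:140631728-140633700 on the minus strand. Since 74 cells rested on ITGAM alone, which granulocytes also carry, they are called C1Q-negative cells throughout.

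The alarmin transcripts of monocytes and neutrophils were high in the C1Q-negative cells, at levels that differed between the organoids. S100A8 stood at 8760 CPM in organoid 32.7 and 5106 CPM in organoid 33.10. The values were 1816 and 1540 CPM in C1Q-positive cells, 16715 and 16037 CPM in MPO-high cells, 3198 and 230 CPM in EPX/CLC cells, and 21.6 and 12.2 CPM in MYH6-high cells. The summed level of the C1Q-negative cells thus lay above that of the C1Q-positive and below that of the MPO-high cells. S100A9 kept the same order, at 11777 and 6950 CPM against 3989 and 4101 CPM in C1Q-positive and 21315 and 21887 CPM in MPO-high cells. S100A12, another alarmin of the same gene cluster, stood at 460 and 101 CPM against 10.5 and 17.9 CPM in C1Q-positive and 972 and 583 CPM in MPO-high cells. These summed values hide a split among the cells. In organoid 32.7 a cell held a median of 60.5 S100A8 UMIs (0 to 1294) and 14 of 66 held none. In organoid 33.10 the median was 0 (0 to 1342), 18 of 34 held none, and the 5 highest cells carried 93.8% of the S100A8 UMIs, 1 cell alone 46.4%. In organoid 32.7 the 5 highest cells carried 43.1%. The level of organoid 33.10 was thus that of a few cells, and by the median cell it lay below the C1Q-positive cells there, not above them. The median of S100A8 and S100A9 together was 106 CPM in C1Q-negative against 4062 CPM in C1Q-positive cells of organoid 33.10, and 14779 against 3663 CPM in organoid 32.7.

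**Figure D1:**
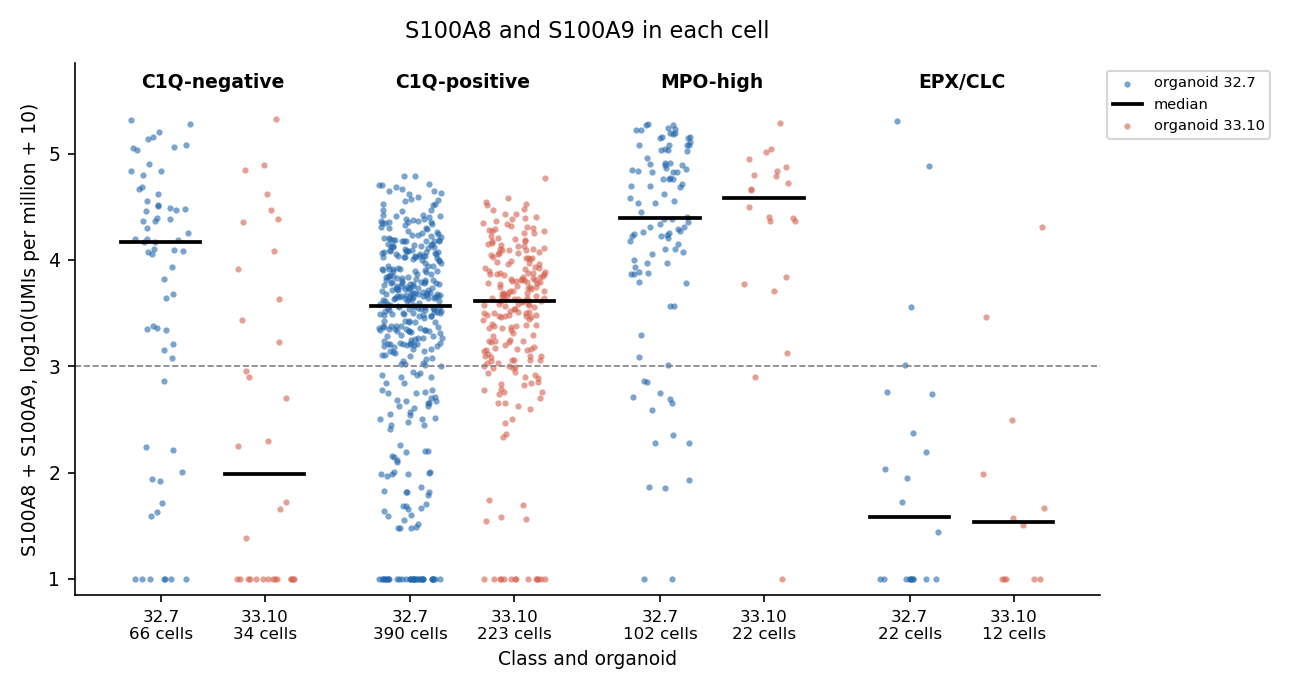
Each point is 1 cell, with S100A8 and S100A9 together as CPM of the cell's total on a log10 axis after adding 10 CPM, by class and organoid; black bars are medians and the dashed line is at 1000 CPM. C1Q-negative cells of organoid 32.7 have a median of 14779 CPM and those of organoid 33.10 a median of 106 CPM, with few cells near the line.

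A level of 1000 CPM for S100A8 and S100A9 together, chosen after the values were seen, divided the cells into alarmin-rich and alarmin-poor ones. The alarmin-rich cells were 50 of 66 in organoid 32.7 (75.8%, 63.6 to 85.5) and 12 of 34 in organoid 33.10 (35.3%, 19.7 to 53.5). Only 4 and 3 cells lay between 500 and 2000 CPM, so few changed sides with the level. The shares were 73.8% (69.2 to 78.1) and 78.9% (73.0 to 84.1) of C1Q-positive cells, and 85.3% (76.9 to 91.5) and 90.9% (70.8 to 98.9) of MPO-high cells. They were 18.2% (5.19 to 40.3) and 16.7% (2.09 to 48.4) of EPX/CLC cells, and 0.393% (0.107 to 1.00) and 0.306% (0.0834 to 0.781) of MYH6-high cells. The low share of organoid 33.10 was seen in the C1Q-negative cells and not in the C1Q-positive or MPO-high cells of the same library, and other CD45-positive cells also had a lower share there (6.67%, 2.72 to 13.3) than in organoid 32.7 (29.5%, 19.7 to 40.9). By marker, 40 of 53 cells with ITGAM and no CD14 were alarmin-rich in organoid 32.7 and 7 of 21 in organoid 33.10. Of the cells with CD14 and no ITGAM, 4 of 6 and 1 of 8 were alarmin-rich. The few cells with both markers did not show the lower share, at 6 of 7 and 4 of 5. For all cells with CD14 the counts were 10 of 13 and 5 of 13. With 2 organoids the difference between them has no test.

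S100A8, S100A9 and S100A12 lie side by side in GRCh38, at chr1:153390032-153391073 on the minus strand, chr1:153357854-153361023 on the plus strand and chr1:153373711-153375621 on the minus strand. The 250 bases before each RefSeq start (GRCh38.p14) are shown because the 3 genes took the same order across C1Q-positive, C1Q-negative and MPO-high cells. Both strands were searched for GAGGAA, the core bound by the myeloid factor PU.1 (SPI1), for TTGCNNAA, a motif of C/EBP factors, and for the TATA box TATAAA. Capitals mark the matches, in the orientation in which they occur. The S100A8 sequence is chr1:153391189-153391438 of the minus strand, before the outermost of its 3 RefSeq starts and upstream of the GENCODE start, the S100A9 sequence chr1:153357604-153357853 of the plus strand, and the S100A12 sequence chr1:153375622-153375871 of the minus strand.
S100A8: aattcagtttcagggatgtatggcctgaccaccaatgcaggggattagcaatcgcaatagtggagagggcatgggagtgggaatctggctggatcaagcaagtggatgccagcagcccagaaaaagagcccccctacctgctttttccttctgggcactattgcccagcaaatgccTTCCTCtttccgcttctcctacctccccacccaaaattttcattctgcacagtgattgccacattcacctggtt
S100A9: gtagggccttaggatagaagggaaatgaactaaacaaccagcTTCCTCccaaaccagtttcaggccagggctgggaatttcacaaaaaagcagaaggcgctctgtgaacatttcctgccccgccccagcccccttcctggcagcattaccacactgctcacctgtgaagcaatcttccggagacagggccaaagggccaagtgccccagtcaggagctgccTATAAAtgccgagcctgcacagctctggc
S100A12: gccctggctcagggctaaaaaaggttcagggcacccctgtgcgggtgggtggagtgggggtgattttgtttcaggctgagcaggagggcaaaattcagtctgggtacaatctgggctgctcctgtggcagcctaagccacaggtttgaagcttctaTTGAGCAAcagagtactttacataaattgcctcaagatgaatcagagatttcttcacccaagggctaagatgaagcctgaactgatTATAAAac
The PU.1 core began 74 bases before the S100A8 start and 208 bases before the S100A9 start, both as TTCCTC. The C/EBP motif occurred before S100A12 alone, as TTGAGCAA 94 bases before the start, and TATAAA occurred 29 bases before the S100A9 start and 8 bases before the S100A12 start. Of 35116 RefSeq promoter windows of this length, 23.6% held GAGGAA, 9.05% TTGCNNAA and 10.7% TATAAA, so each match is a description of the letters present.

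The other genes of the monocyte list followed the alarmins to different degrees. LYZ (chr12:69348381-69354234) stood at 4212 and 1369 CPM, against 1054 and 735 CPM in C1Q-positive, 7454 and 6548 CPM in MPO-high and 14.0 and 5.42 CPM in MYH6-high cells. Its summed level took the same intermediate place as the alarmins, but in organoid 33.10 a cell held a median of 2.5 LYZ UMIs (177 CPM) and the 5 highest of 34 cells carried 73.6% of them. FCN1, which encodes the lectin M-ficolin of monocytes, stood at 412 and 113 CPM, against 144 and 84.2 CPM in C1Q-positive and 453 and 478 CPM in MPO-high cells. VCAN, the proteoglycan versican, stood at 1588 and 773 CPM, a range that overlapped C1Q-positive cells (921 and 1114 CPM) and MPO-high cells (819 and 904 CPM), with MYH6-high cells just below it (685 and 579 CPM). The G-CSF receptor CSF3R stood at 221 and 68.8 CPM, higher in organoid 32.7. An S100A8 UMI was seen in 78.8% and 47.1% of C1Q-negative cells against 10.0% and 5.73% of MYH6-high cells, a LYZ UMI in 89.4% and 61.8% against 7.07% and 5.28%, and an FCN1 UMI in 69.7% and 32.4% against 0.393% and 0.153%. Thinned to 5000 UMIs a cell, with 13 and 9 shallower C1Q-negative cells left out, the S100A8 shares were 69.8% and 40.0% against 4.10% and 3.50%. All 3 genes thus lay above the share seen in MYH6-high cells.

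**Figure D2:**
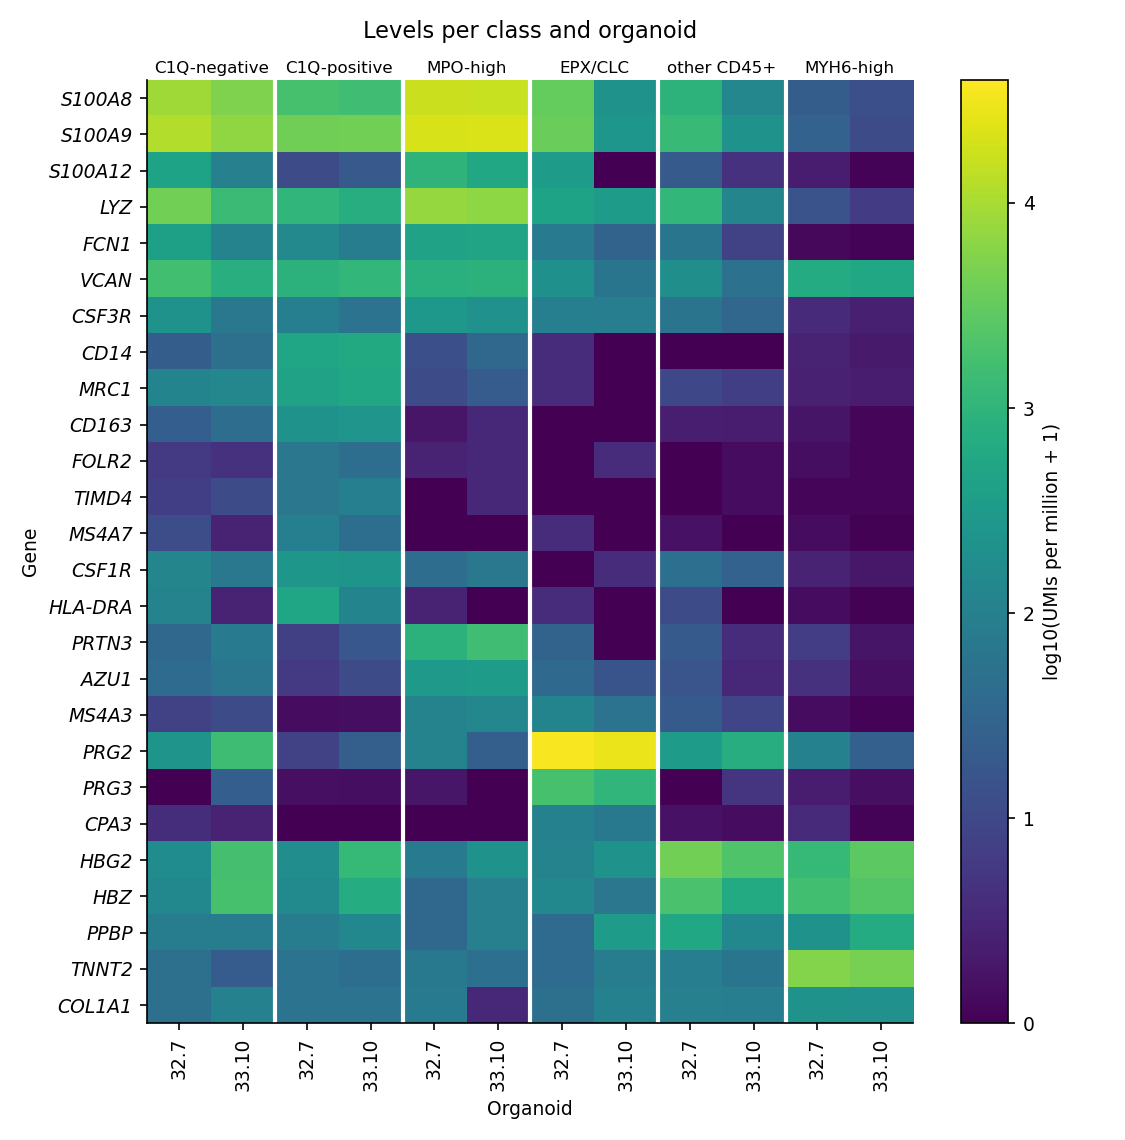
Heat map of log10(CPM + 1) for the genes in rows and, in columns, each of the 6 cell classes in organoid 32.7 and organoid 33.10; colour gives the level of the UMIs summed over the cells of that class and organoid. The alarmin and LYZ rows of the C1Q-negative cells lie between those of C1Q-positive and MPO-high cells, and the rows of MRC1, CD163, FOLR2, TIMD4 and MS4A7 are strongest in C1Q-positive cells.

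The comparison with C1Q-positive cells asks what separates the C1Q-negative cells, besides the C1Q genes themselves, from the C1Q-positive cells, which made up 32.6% of 1196 and 36.0% of 620 cells with at least 2 PTPRC UMIs. The C1Q-negative cells were lower in several genes of tissue macrophages, among them the haemoglobin scavenger receptor CD163, the mannose receptor MRC1, the phosphatidylserine receptor TIMD4 and the transcription factor MAF, with log2 fold changes between -3.39 and -2.05 for these 4. They were higher in genes of granulocyte precursors and progenitors, such as BPI, PADI4, AZU1 and MYB. In edgeR's quasi-likelihood test on the UMIs summed per organoid and class, with Benjamini-Hochberg adjustment over 9774 genes, 118 genes were higher (1.21% of the genes tested) and 117 lower (1.2%) at an adjusted p under 0.05. With the organoid as a block the counts rose to 337 in both directions. These p-values measure the spread between 2 organoids, and the classes were drawn by the rule, so the counts describe the classes as selected.

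Among the lower genes, CD163 (chr12:7470811-7503893) stood at 22.4 and 42.3 CPM in C1Q-negative cells against 219 and 252 CPM in C1Q-positive cells. Both organoids lay far below, with a log2 fold change of -2.98 ± 0.27 (SE; edgeR's quasi-likelihood test, Benjamini-Hochberg adjusted p = 0.00459). MRC1 stood at 120 and 134 CPM against 451 and 571 CPM (-2.05 ± 0.24, edgeR adjusted p = 0.00459), and it remained detected in 20 and 15 cells. MAF, a factor of mature macrophages, stood at 59.2 and 63.5 CPM against 387 and 415 CPM, again without overlap (-2.75 ± 0.30, edgeR adjusted p = 0.00459). TIMD4, which marks resident macrophages that take up dying cells, stood at 6.12 and 10.6 CPM against 66.6 and 96.9 CPM (-3.39 ± 0.46, edgeR adjusted p = 0.00753). The folate receptor FOLR2, another resident macrophage marker, stood at 5.10 and 3.53 CPM against 66.2 and 44.7 CPM (-3.65 ± 0.46, edgeR adjusted p = 0.00513). The drug and haem exporter ABCG2 was nearly absent, with 2 UMIs in all C1Q-negative cells against 50.8 and 43.2 CPM, as were the chemokine CCL4 with 1 UMI and the apolipoprotein APOC2 with 2. RAB3IL1, CRYBB1, MS4A7 and TMIGD3 completed the 10 most lowered genes with at least 20 CPM in the higher class in both organoids, the limit for all such lists of 10 here, with log2 fold changes between -3.60 and -3.14.

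By list, 9 of the 18 macrophage genes tested fell and none rose (TIMD4, TREM2, MRC1, LYVE1, MS4A7, FOLR2, CD163, MAF and VSIG4), with a median log2 fold change of -2.11 against 0.0235 over all genes. The list held CD4, which with HLA-DRA and C1QA the study itself used on these samples to mark maturing macrophages, so the direction of these genes is not independent evidence. CD4 did not pass, at 78.5 and 38.8 CPM against 76.2 and 77.6 CPM. Of 19 scavenger and lysosomal genes, 7 fell and none rose. They included the long-chain fatty acid receptor CD36 (90.8 and 82.9 CPM against 486 and 464 CPM), the engulfment receptor MERTK, and the lysosomal proteases CTSB (233 and 178 CPM against 1006 and 1066 CPM) and CTSL. Of 14 lipid and iron genes, 4 fell and none rose: TREM2, the cholesterol exporter ABCA1, the fatty acid carrier FABP5 and the ferritin light chain FTL. FTL stood at 15266 and 9614 CPM against 29213 and 28371 CPM (-1.24 ± 0.26, edgeR's adjusted p = 0.0377). Fc and complement receptors moved both ways: FCGR1A, FCGR2A, FCGR3A and the anaphylatoxin receptor C3AR1 fell, whereas complement receptor 1 (CR1) rose, at 209 and 120 CPM against 54.4 and 65.8 CPM (1.45 ± 0.28, edgeR's adjusted p = 0.0243). CSF1R, the receptor for the macrophage growth factor CSF1, fell from 271 and 239 CPM to 122 and 68.8 CPM (-1.41 ± 0.31, edgeR's adjusted p = 0.0431), the only gene of 6 in the colony-stimulating factor axis to pass.

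MHC class II genes, which present antigen and mark maturing macrophages, did not pass in the main fit, which had no block, and some passed with the organoid as a block. The 10 genes summed to 408 and 72.3 CPM in C1Q-negative cells, below the 1625 and 470 CPM of C1Q-positive cells and above the 68.4 and 49.2 CPM of MPO-high and the 25.7 and 43.0 CPM of EPX/CLC cells. HLA-DRA stood at 115 and 1.76 CPM against 509 and 116 CPM in C1Q-positive cells, a ratio in the same direction in each organoid. Its edgeR adjusted p was 0.229, and 0.00624 with the block, where the log2 fold change was -2.68. The invariant chain CD74 stood at 157 and 26.5 CPM against 489 and 177 CPM (edgeR adjusted p = 0.189, blocked 0.0143). HLA-DRA and CD74 each passed in 2 of the 8 alternative fits, the blocked fit among them. Of 7 class II genes tested, none passed in the main fit and 4 fell with the block, while HLA-DRA and HLA-DRB1 rose with the block against both MPO-high and EPX/CLC cells. With the block, 13 of 18 macrophage genes fell, F13A1 (edgeR adjusted p 0.111 without and 0.0338 with the block) among them.

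**Figure D3:**
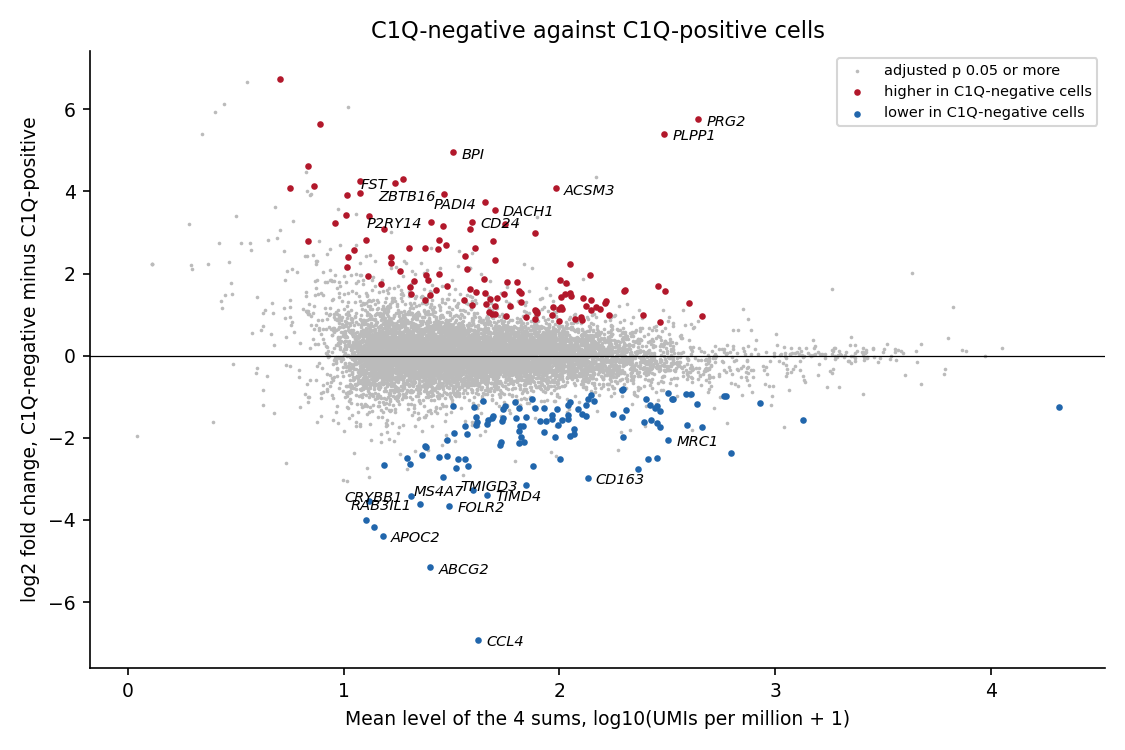
Log2 fold change of C1Q-negative minus C1Q-positive cells against the mean level of each of the 9774 genes tested; coloured points passed the edgeR test at an adjusted p under 0.05, 118 higher and 117 lower. The lowered macrophage genes CD163, MRC1 and TIMD4 lie between -3.39 and -2.05, and the raised genes PRG2, PLPP1 and BPI lie at or above 4.95.

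The genes higher in C1Q-negative cells came from several lineages. PRG2 (chr11:57386780-57390650, minus strand), the eosinophil granule protein, led the list at 242 and 1487 CPM against 7.03 and 24.1 CPM (5.75 ± 0.91, edgeR's adjusted p = 0.0112). Only 6 and 9 cells held it, and 2 and 4 cells held at least 50 UMIs. As an alternative chosen after the data were seen, the log2 ratios were also taken without the 6 and 15 cells rich in globin, PRG2, PF4 or collagen, which is uninformative for PRG2 itself. PLPP1, a lipid phosphate phosphatase, stood at 170 and 1020 CPM against 11.8 and 14.2 CPM (5.41 ± 0.67, edgeR's adjusted p = 0.00478), but 1 cell gave 72.3% of its UMIs and its ratio without the 6 and 15 cells was 1.68. ZBTB16, a zinc finger factor of progenitors, stood at 22.4 and 84.7 CPM against 3.32 and 2.70 CPM (3.93 ± 0.61, edgeR's adjusted p = 0.0106), and turned to -0.14 without them. FST (follistatin, 75.0% from 1 cell), ACSM3, DACH1 and P2RY14 were also among the 10 most raised genes. Without the same cells the log2 ratio of ACSM3 was 2.46, from 4.07, that of DACH1 2.43, from 3.55, and that of P2RY14 1.92, from 3.25, and of the lowered genes CD163 stood at -2.30 and MRC1 at -1.34.

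In other raised genes no single cell held most of the UMIs. BPI, the bactericidal permeability-increasing protein of neutrophil granules, stood at 66.3 and 54.7 CPM against 2.26 and 1.23 CPM, in 18 and 5 cells (4.95 ± 0.57, edgeR's adjusted p = 0.00459). PADI4, the enzyme that citrullinates histones in neutrophils, stood at 107 and 56.5 CPM against 4.91 and 7.85 CPM, in 31 and 11 cells (3.73 ± 0.46, edgeR's adjusted p = 0.00478). CD24, a surface glycoprotein of granulocytes and progenitors, stood at 70.4 and 68.8 CPM against 8.49 and 4.91 CPM (3.27 ± 0.36, edgeR's adjusted p = 0.00459). All 3 were higher in both organoids, and without the cells rich in other lineages' genes their log2 ratios were 5.23, 3.90 and 2.72.

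Of 9 primary granule genes tested, 3 rose and none fell: the serine protease homologue AZU1 (38.8 and 61.8 CPM against 5.04 and 10.1 CPM, 2.70 ± 0.38, edgeR's adjusted p = 0.00753), the late granulocyte factor CEBPE and the membrane protein MS4A3. AZU1 was found in 17 and 5 cells, and 1 cell gave 41.1% of its 73 UMIs, so its level in organoid 33.10 rested on few cells. With the block LYZ and PRTN3 passed as well. Of 6 stem and progenitor genes, 3 rose. They were MYB, a factor of haematopoietic progenitors (42.8 and 127 CPM against 9.16 and 13.5 CPM, 2.79 ± 0.40, edgeR's adjusted p = 0.00753), GATA2, a factor of stem, mast and basophil cells (2.57 ± 0.43, edgeR's adjusted p = 0.0126), and the sialophorin SPN (CD43). GATA2 rested on few cells: 1 cell gave 58.6% of its 29 UMIs, and its ratio without the cells rich in other lineages' genes was 0.35, whereas that of MYB was 1.92. Of 9 eosinophil, basophil and mast cell genes, PRG2, GATA2 and the histidine decarboxylase HDC rose and the prostaglandin D synthase HPGDS fell. HDC, with 28 UMIs in 2 and 8 cells, turned to a log2 ratio of -4.22 without the cells rich in other lineages' genes.

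The monocyte genes themselves were split. The C-type lectin CLEC12A rose (52.0 and 33.5 CPM against 13.5 and 7.36 CPM, edgeR's adjusted p = 0.0419), whereas CD36 and FCGR3A fell. S100A8 had a log2 fold change of 2.02 ± 0.81 (edgeR's adjusted p = 0.248) and S100A9 of 1.19 ± 0.78 (edgeR's adjusted p = 0.494), so neither passed. Their summed levels were higher than in C1Q-positive cells in both organoids, without overlap. S100A12 (4.36 ± 1.09) and LYZ (1.63 ± 0.45) had edgeR adjusted p-values of 0.0734 and 0.105, and both passed with the block, LYZ at 0.0210. Between the organoids VCAN changed direction, with log2 ratios of 0.77 in organoid 32.7 and -0.58 in organoid 33.10.

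The MPO-high cells, precursors that carry the neutrophil granule enzyme by selection, differed from the C1Q-negative cells in fewer genes. The C1Q-negative cells were lower in further granule proteins and higher in several macrophage transcripts. In edgeR's quasi-likelihood test 19 genes were higher (0.194% of those tested) and 13 lower (0.133%) at an adjusted p under 0.05, and with the organoid as a block 50 and 41. The median log2 fold change over all genes was 0.0054.

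Proteinase 3 (PRTN3) stood at 34.7 and 74.1 CPM in C1Q-negative cells against 916 and 1567 CPM in MPO-high cells (-4.68 ± 0.59, edgeR's adjusted p = 0.0138). CST7, an inhibitor of granule proteases, stood at 12.2 and 12.4 CPM against 197 and 265 CPM (-4.29 ± 0.47, edgeR's adjusted p = 0.00743). AZU1 stood at 38.8 and 61.8 CPM against 295 and 337 CPM (-2.80 ± 0.34, edgeR's adjusted p = 0.0120). All 3 thus lay far below the MPO-high cells in both organoids, although the summed level of AZU1, 41.1% of it from 1 cell, lay above that of the C1Q-positive cells. The defensin DEFA4 had 1 UMI against 80.1 and 91.3 CPM, and AFF2 had 3. MS4A3, RGL4, RNASE3, FAM107B and LYST, a regulator of lysosome and granule size, completed the 10 most lowered genes, with log2 fold changes between -3.92 and -1.44. Of 9 primary granule genes tested 5 fell and none rose (median -1.84), and with the block 7 fell.

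On the other side, CCL2, the chemokine that draws monocytes, stood at 130 and 185 CPM against 4.50 and 7.03 CPM, in 11 and 10 cells (4.83 ± 0.55, edgeR's adjusted p = 0.00754). The coagulation factor subunit F13A1 stood at 283 and 74.1 CPM against 4.50 and 7.03 CPM (5.11 ± 0.80, edgeR's adjusted p = 0.0355), with 41.1% of its UMIs from 1 cell. MRC1 stood at 120 and 134 CPM against 10.8 and 21.1 CPM (3.14 ± 0.33, edgeR's adjusted p = 0.00743), and its log2 ratio was 3.87 without the cells rich in other lineages' genes. For MRC1 the C1Q-negative cells thus stood between the MPO-high and the C1Q-positive cells in both organoids. CD163 and its relative CD163L1 were also higher, against 3 UMIs each in the MPO-high cells. FST, at 0 in MPO-high cells, was at least 29.7-fold higher, taking 3 UMIs over that class as the floor. However, 1 cell gave 75.0% of its 52 UMIs, and FST passed in 2 of the 5 alternative fits that held it. PLPP1, P2RY14, CTTNBP2 and the non-coding RNA LNCAROD completed the 10 most raised genes. Without the cells rich in other lineages' genes the log2 ratio of PLPP1 was 0.78, from 4.48, that of P2RY14 2.53, from 3.88, and that of CTTNBP2 2.18, from 3.68. Of 18 macrophage genes 3 rose and none fell (median 1.59), and 4 rose with the block.

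None of the 13 monocyte genes tested passed against MPO-high cells (median -0.12). S100A8 had a log2 fold change of -1.33 ± 0.79 (edgeR's adjusted p = 0.595) and S100A9 of -1.30 ± 0.78 (edgeR's adjusted p = 0.599). LYZ fell with the block (-1.59, blocked edgeR adjusted p = 0.0375, 0.257 in the main fit), as did the granule proteoglycan serglycin (SRGN), at 549 and 1426 CPM against 2615 and 3731 CPM (-1.86, blocked edgeR adjusted p = 0.0385, 0.0845 in the main fit). LYZ passed in 2 and SRGN in 4 of the 8 alternative fits, the blocked fit among them.

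Against EPX/CLC cells the C1Q-negative cells were far lower in eosinophil genes and carried phagocyte genes that those cells did not show. In edgeR's quasi-likelihood test 224 genes were higher (2.29% of those tested) and 188 lower (1.92%) at an adjusted p under 0.05, with a median of 0.0229 over all genes. This class held only 22 and 12 cells, so each of its values rests on few cells.

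PRG2 stood at 242 and 1487 CPM against 35240 and 29085 CPM in EPX/CLC cells (-5.43 ± 0.87, edgeR's adjusted p = 0.00915). Its homologue PRG3 stood at 0 and 22.9 CPM against 1836 and 1044 CPM (-7.49 ± 0.72, edgeR's adjusted p = 0.00111), and the interleukin-5 receptor IL5RA at 1.02 and 14.1 CPM against 140 and 172 CPM (-4.81 ± 0.56, edgeR's adjusted p = 0.00231). All 3 eosinophil genes were far lower in both organoids. Of 9 eosinophil, basophil and mast cell genes tested 8 fell and none rose (median -4.01), among them GATA2, HDC and the mast cell carboxypeptidase CPA3. RHEX had 1 UMI in the C1Q-negative cells, CDK15 had 2 and AFF2 had 3. SVOPL was at 0 in C1Q-negative cells and at least 17.0-fold lower, taking 3 UMIs over the class as the floor, but its adjusted p was 0.0533 in edgeR with the block. The hormone gene AVP and the T cell receptor gene TRDC completed the 10 most lowered genes.

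Many raised genes were at 0 in the EPX/CLC cells, so that only a lower bound could be given, with 3 UMIs over that class (4.29 CPM) as the floor. The reticulon RTN1 was at least 38.5-fold higher, the high-affinity IgG receptor FCGR1A at least 12.3-fold, the fractalkine receptor CX3CR1 at least 9.79-fold, the sialic acid receptor SIGLEC9 at least 9.18-fold and the myeloid factor IRF8 at least 5.12-fold. FCGR1A was found in 30 and 16 of the C1Q-negative cells. LYZ stood at 4212 and 1369 CPM against 465 and 333 CPM (2.69 ± 0.49, edgeR's adjusted p = 0.0157). VCAN stood at 1588 and 773 CPM against 203 and 60.3 CPM (3.03 ± 0.50, edgeR's adjusted p = 0.0107). Both were higher in each organoid without overlap. Of 13 monocyte genes 4 rose and none fell (median 2.26, or 1.85 with genes at 0 set to their bounds), and of 18 macrophage genes 6 rose and none fell (3.08, or 2.34 at the bounds). Of 14 pattern recognition genes 4 rose (TLR1, TLR6, LY96 and CLEC7A), and of 15 Fc and complement receptor genes 4 rose. S100A8 (1.85 ± 0.81, edgeR's adjusted p = 0.246) and S100A9 (2.13 ± 0.81, edgeR's adjusted p = 0.186) did not pass.

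Genes common to phagocytes were present in the C1Q-negative cells, and most did not pass against C1Q-positive or MPO-high cells. SPI1, the gene of PU.1, stood at 301 and 171 CPM against 372 and 360 CPM in C1Q-positive and 295 and 265 CPM in MPO-high cells. TYROBP, the signalling adaptor of many myeloid receptors, stood at 933 and 551 CPM against 1255 and 1177 CPM in C1Q-positive cells. CYBB, the catalytic subunit of the phagocyte NADPH oxidase, stood at 705 and 367 CPM against 726 and 729 CPM in C1Q-positive and 692 and 639 CPM in MPO-high cells. None of the 6 NADPH oxidase genes passed against either class. Against EPX/CLC cells, where CYBB stood at 183 and 146 CPM, CYBB rose (1.58 ± 0.33, edgeR's adjusted p = 0.0264) and NCF4, a regulatory subunit, fell. Of 17 myeloid transcription factor genes 2 rose (GATA2 and CEBPE) and 2 fell (MAF and IRF8) against C1Q-positive cells, and none passed against MPO-high cells, where GATA2 rose with the block. RUNX1, a master factor of blood formation, stood at 509 and 626 CPM against 234 and 377 CPM in C1Q-positive cells. It did not pass in the main fit (0.85 ± 0.23, edgeR's adjusted p = 0.100) and passed with the block. Of the receptors for GM-CSF, CSF2RA stood at 134 and 79.4 CPM and CSF2RB at 63.2 and 29.99 CPM, and neither passed against C1Q-positive cells. The toll-like receptors TLR2 (77.5 and 15.9 CPM) and TLR4 (42.8 and 15.9 CPM) were higher in organoid 32.7, and none of 14 pattern recognition genes passed against C1Q-positive cells, while the lipopolysaccharide co-receptor LY96 fell with the organoid as a block.

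Markers of other lineages were measured among the C1Q-negative cells, with the MYH6-high cells as background. The 14 erythroid genes summed to 629 and 6168 CPM, led by HBE1 at 207 CPM in organoid 32.7 and by HBZ at 1849 CPM in organoid 33.10, against 4377 and 8497 CPM in MYH6-high cells. An HBG2 UMI was held by 62.1% and 79.4% of C1Q-negative and 49.1% and 72.2% of MYH6-high cells. After thinning the shares were 37.7% (24.8 to 52.1) and 64.0% (42.5 to 82.0) against 26.4% (23.5 to 29.5) and 48.7% (45.9 to 51.6), with overlapping intervals. The summed erythroid level lay below that of MYH6-high cells in both organoids. Neither measure thus showed a clear excess of globin over the MYH6-high cells. In organoid 33.10 the 5 highest C1Q-negative cells carried 90.3% of the HBG2 UMIs, and 1 cell alone 51.0%. HBG1 and HBG2, and HBA1 and HBA2, are near-identical copies whose reads may be split between them. The 18 eosinophil, basophil and mast cell genes summed to 594 and 1809 CPM against 129 and 46.7 CPM in MYH6-high cells, with 7 genes at 0 in each organoid. PRG2 was the top gene in organoid 33.10, and a PRG2 UMI was held by 9.09% and 26.5% of C1Q-negative cells against 6.97% and 6.57% of MYH6-high cells. Megakaryocyte genes summed to 140 and 353 CPM against 407 and 1067 CPM in MYH6-high cells, and mesenchymal genes to 145 and 445 CPM against 1014 and 828 CPM, both below the MYH6-high cells in each organoid, although 1 sub-cluster held most of the collagen transcripts. Endothelial genes summed to 434 and 499 CPM against 298 and 342 CPM. Cardiomyocyte genes summed to 281 and 138 CPM against 27708 and 22395 CPM in MYH6-high cells. The part of these lineages in the results above was not tested beyond leaving out the cells named.

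Defining T and B cell markers were near 0, while other genes of the lymphoid list were not. The 22 lymphoid genes summed to 893 and 596 CPM, of which NKG7, a cytotoxic granule protein gene also at 403 and 391 CPM in C1Q-positive cells, gave 488 and 342 CPM. CD3D, a subunit of the T cell receptor complex, stood at 1.02 and 1.76 CPM and the B cell gene CD79A at 1.02 and 0 CPM, with 9 and 12 lymphoid genes at 0. ID2, a transcription factor inhibitor that myeloid cells also carry, stood at 148 and 161 CPM, the lymphotoxin gene LTB at 143 and 38.8 CPM, and the interleukin 7 receptor IL7R at 85.7 and 33.5 CPM, in 15 and 6 cells. IL7R stood at 75.1 and 63.3 CPM in C1Q-positive cells and at 0 in EPX/CLC cells, where it was at least 15.5-fold higher in the C1Q-negative cells, with 3 UMIs over the EPX/CLC cells as the floor (edgeR's adjusted p = 0.0306). Of the 4 lymphoid genes tested, none passed against C1Q-positive or MPO-high cells, and IL7R and NKG7 rose against EPX/CLC cells, joined by ID2 with the block. The 16 dendritic genes summed to 199 and 272 CPM, most of it from TCF4 (107 and 222 CPM), with 7 and 11 genes at 0. Secondary granule genes of maturing neutrophils summed to 376 and 21.2 CPM, nearly all MMP9 (358 and 21.2 CPM), and 4 and 8 of the 9 genes stood at 0. LTF and CAMP, which define these granules, stood at 6.12 and 0 CPM and at 3.06 and 0 CPM. The osteopontin gene SPP1 (chr4:87975667-87983532) stood at 3174 and 93.5 CPM against 2519 and 1641 CPM in C1Q-positive cells, and 3 cells carried 99.3% of its UMIs in organoid 32.7.

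Clustering of the 100 cells without the genes of the rule gave 5 sub-clusters of 28, 26, 17, 15 and 14 cells. They are numbered by size and left unnamed, and since they were formed from the genes that describe them no test was made. Sub-cluster 1 held 25 cells of organoid 32.7 and 3 of organoid 33.10, and 27 of its 28 cells were alarmin-rich. It had 33526 CPM of S100A8 against 2670 CPM in the other C1Q-negative cells. Its leading gene was S100A12, at 1952 CPM against 32.9 CPM and in 24 of 28 cells, followed by the metalloreductase STEAP4, the mast cell-expressed membrane protein MCEMP1, STAC and THBS1. CD14 was seen in only 4 of its cells. Sub-cluster 5 (9 and 5 cells) was also alarmin-rich in 13 of 14 cells, with 8833 CPM of S100A8, 8887 CPM of LYZ and, at 188 CPM in 8 cells, the highest CD14 of the 5 sub-clusters. GDF15, RND3, AZU1, CTSL and CXCR4 led it, but for each of them 1 cell gave most of the UMIs, with all of GDF15, 91.7% of RND3, 85.7% of AZU1, 80.8% of CXCR4 and 53.2% of CTSL, and the inflammasome protease CASP1 was found in 11 of its 14 cells.

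Sub-cluster 3 was the reverse. It held 5 cells of organoid 32.7 and 12 of organoid 33.10, none of its 17 cells was alarmin-rich, and S100A8 stood at 2.03 CPM, LYZ at 280 CPM and FCN1 at 0. Its cells held a median of 27945 UMIs (841 to 69809) against 5724 in sub-cluster 1. The part of depth in the alarmin-poor cells was not tested. PLPP1, HBA1, HBZ, HBA2, ROBO2 and ZBTB16 led it, with 75.4% of PLPP1 and 76.6% of HBZ from 1 cell, whereas the potassium channel gene KCNQ5 was found in 12 of 17 cells. PTPRC stood at 356 CPM and ITGAM at 99.6 CPM in this sub-cluster, and 2 cells held CD14. Sub-cluster 2 (19 and 7 cells) had 16 alarmin-rich cells and was led by CCL1, SPP1 and MMP7, of which 1 cell gave 99.7% of CCL1 and 97.3% of MMP7. Sub-cluster 4 (8 and 7 cells) was led by the neuronal adhesion gene LSAMP, found in 14 of 15 cells, and by the matrix link protein HAPLN1, the neuropeptide precursor TAC1 (in 3 cells, 96.9% from 1) and the scaffold MAGI2, and 8 of its 15 cells were marked as doublets by Scrublet. It also held the collagen transcripts, with COL1A1 at 372 CPM in 12 of 15 cells, COL3A1 at 350 CPM in 11 and COL1A2 at 264 CPM in 11, against at most 16.8 CPM for any of the 3 in the other sub-clusters. The stromal receptor PDGFRA was found in 7 of its cells and in none of the others. Its endothelial EGFL7 (410 CPM), EMCN and TEK (55.9 CPM each) and cardiac MYL7 (149 CPM) and RYR2 (119 CPM) were the highest of the 5 sub-clusters. The other sub-clusters held 2, 1, 0 and 0 marked cells in the order 1, 2, 3 and 5. At a lower resolution the cells formed 2 sub-clusters and at a higher one 7.

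**Figure D4:**
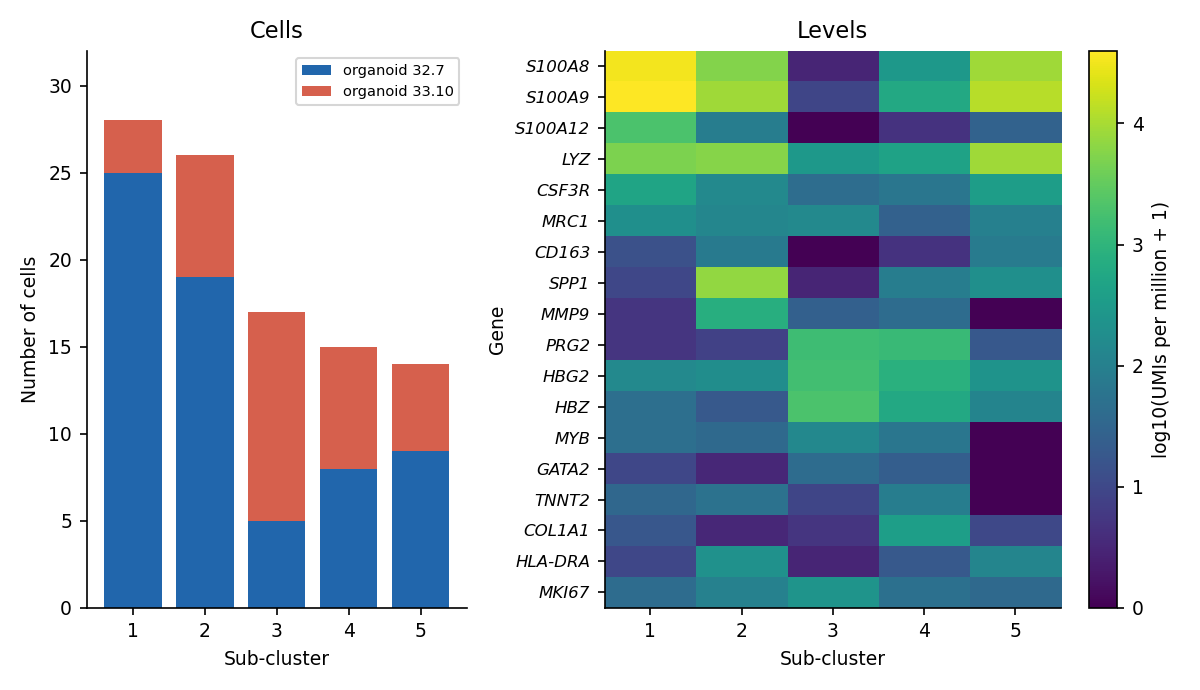
The bars give the number of cells of each of the 5 sub-clusters by organoid, and the heat map gives log10(CPM + 1) of marker genes in each sub-cluster, summed over its cells. Sub-cluster 1 holds 25 cells of organoid 32.7 and 3 of organoid 33.10 with the highest S100A8 and S100A12, and sub-cluster 3 holds 5 and 12 cells with nearly none.

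Many C1Q-negative cells carried transcripts of dividing cells. After thinning to 5000 UMIs, 34.0% in organoid 32.7 (18 of 53, 21.5 to 48.3) and 44% in organoid 33.10 (11 of 25, 24.4 to 65.1) held at least 3 UMIs of the 7 mitotic genes MKI67, TOP2A, CCNB1, CDK1, BIRC5, CENPF and UBE2C, a mean of 39.0% ± 7.10 (SD, n = 2); the limit of 3 was chosen after the data were seen. Without thinning the shares were 37.9% and 52.9%. The transcripts were unevenly spread over the sub-clusters, which also differ in depth. MKI67 stood at 242 CPM in sub-cluster 3, in 12 of 17 cells, and at 42.0 CPM in sub-cluster 1, in 3 of 28. In sub-clusters 2, 4 and 5 it stood at 105, 48.4 and 35.7 CPM. The thinned shares were 34.5% and 42.0% in C1Q-positive, 44.9% and 63.6% in MPO-high, 47.4% and 66.7% in EPX/CLC, 53.0% and 52.1% in other CD45-positive and 7.52% and 7.42% in MYH6-high cells. The C1Q-negative and C1Q-positive shares differed by less than their counting intervals, and both lay above the MYH6-high background. None of 17 cell cycle genes passed against C1Q-positive or MPO-high cells. Against MPO-high cells MKI67 (104 and 159 CPM against 235 and 323 CPM) and TOP2A (115 and 226 CPM against 281 and 377 CPM) fell with the block (edgeR's adjusted p = 0.0497 and 0.0410, against 0.166 and 0.154 in the main fit). Each passed in 5 of the 8 alternative fits, the blocked fit among them. Against EPX/CLC cells 5 of the 17 fell (H2AFZ, HMGB2, CDK1, TOP2A and UBE2C; median -0.79), and 7 with the block.

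**Figure D5:**
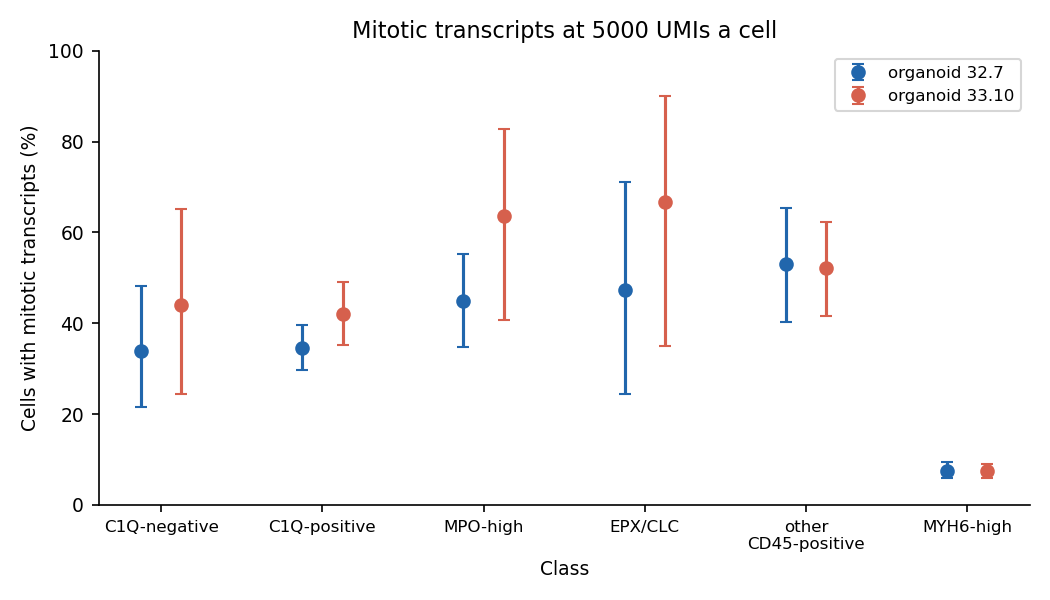
Share of cells with at least 3 UMIs of the 7 mitotic genes after thinning to 5000 UMIs, by class and organoid; points are the shares and vertical lines their exact 95% binomial intervals. C1Q-negative cells reach 34.0% and 44%, close to C1Q-positive cells and above the 7.52% and 7.42% of MYH6-high cells.

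The RNA-binding and chromatin genes of the fetal growth programme did not set the C1Q-negative cells clearly apart from the MYH6-high cells. LIN28B, which blocks let-7 microRNA maturation, stood at 109 and 191 CPM, IGF2BP1 at 129 and 138 CPM, IGF2BP3 at 169 and 182 CPM and HMGA1 at 275 and 381 CPM. The 7 genes summed to 886 and 1136 CPM, against 816 and 850 CPM in C1Q-positive and 947 and 999 CPM in MYH6-high cells, and none of the 6 tested passed in any comparison.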

How the data were processed

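The 2 deposited matrices hold raw UMI counts per gene and barcode (36601 genes), which the authors made with Cell Ranger 7.0.0 on GRCh38, intronic reads included. They precede the study's aggregation, SoupX correction and filter of 50 to 11000 genes and under 30% mitochondrial reads, so free RNA remains. The libraries held 191152562 UMIs in 16866 barcodes (500 to 126490 each; organoid 32.7) and 233818881 in 19948 (500 to 116604; organoid 33.10). The members and gene lists were chosen with earlier results of these data known.

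Cells were not treated as replicates: counts were summed per organoid and class, and 8 sums entered 1 edgeR 4.0.16 quasi-likelihood fit (R 4.3.3, TMM, low-count filter, Benjamini-Hochberg over 9774 genes, rule genes left out). Changes are log2 fold changes of C1Q-negative cells minus the other class. Same-numbered sums come from the same organoid; their deviations from the class means correlated across 9784 genes at 0.264 with C1Q-positive, -0.0192 with MPO-high and 0.151 with EPX/CLC cells. Named were genes of the fixed lists, per comparison the 10 largest changes in each direction among genes past the threshold with at least 20 CPM in the higher class in both organoids, and 10 leading genes per sub-cluster by fold; mitochondrial, ribosomal, sex-linked and clone-named genes were left out. Sub-clusters came from Leiden clustering (scanpy 1.11.5, 2000 variable genes, 20 components, 15 neighbours, resolution 0.5). Doublets were kept and removed in an alternative (top Scrublet scores at 0.8% per 1000 barcodes: 2276 and 3183 barcodes, 11 members), since Scrublet's own threshold marked 0 and 3813. Alternatives were DESeq2 1.42.0, no low-count filter, the organoid block, stricter thresholds, 5000 to 30000 UMIs, thinning to 5000 UMIs, doublets removed, 10% of the library profile removed and each organoid alone. The fits were tested on simulated data. Some items are not reported here.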

Additional observations from a re-analysis of the deposited data

Results flagged for a closer look

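Cells just outside the rule also held the alarmins. Of the cells that met every condition but had 0 or 1 PTPRC UMI, 25% in organoid 32.7 (43 of 172, exact 95% interval 18.7 to 32.2) and 7.89% in organoid 33.10 (6 of 76, 2.95 to 16.4) held at least 1000 CPM of S100A8 and S100A9 together. Among other CD45-positive cells with no ITGAM or CD14 UMI the shares were 29.5% (23 of 78, 19.7 to 40.9) and 6.67% (7 of 105, 2.72 to 13.3). Both lay above the shares in MYH6-high cells, 0.393% (4 of 1018) and 0.306% (4 of 1308), which is why they are listed, since no test across genes used these cells. The cells with 0 or 1 PTPRC UMI had median depths of 4505 and 8930 UMIs, against 7842 and 8285 over all barcodes of each library, and the part of depth was not tested. In both groups the share was higher in organoid 32.7, as in the C1Q-negative cells.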

How the results depend on the processing

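Counts of genes past the threshold against C1Q-positive cells (235) rose to 762 with no low-count filter, over 25039 genes, and to 402 with doublets removed. Against MPO-high cells (32) they were 92 with DESeq2, 451 with no filter, 91 with the replicate block, 99 with doublets removed and 14 with 10% of the library profile removed. Against EPX/CLC cells (412) they were 871 with no filter, 264 with stricter thresholds, 194 at 5000 to 30000 UMIs and 190 after thinning. The replicate block gave 337 and 502 for C1Q-positive and EPX/CLC cells and changed the call of 12 of 173 named gene results, with those described given beside them. The share of higher calls against MPO-high cells, 59.4%, became 46.7% at 5000 to 30000 UMIs and 71.4% with 10% of the profile removed. Of the named genes past the threshold, 31 of 52, 4 of 20 and 29 of 65 passed in every other fit against the 3 classes in this order. The mean share of C1Q-negative cells fell to 0.0756% with CD14 required, and resolution 0.3 gave 2 sub-clusters. With 1 organoid left out at a time the share was 0.178% to 0.422% and the mitotic share 34.0% to 44%, and no test was possible. HBZ against C1Q-positive cells (1.13, not past the threshold) turned to -0.12 at 5000 to 30000 UMIs. Without members rich in other lineages' genes (60 and 19 cells left, chosen after the data were seen), against C1Q-positive cells ZBTB16 turned to -0.14 and HDC to -4.22, and PRG2 to -1.64 and HBZ to -1.63, which removing cells rich in PRG2 and globin fixes. The causes were not tested. With 2 organoids, 34 to 66 members and low counts, small differences could not be detected.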

Other observations

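Interferon-response genes summed to like levels in the C1Q-negative cells of both organoids and to unequal levels in C1Q-positive and MYH6-high cells. IFI27 stood at 144 CPM in organoid 32.7 and 461 CPM in organoid 33.10 in C1Q-negative cells, at 273 and 1521 CPM in C1Q-positive cells, at 31.0 and 162 CPM in MPO-high cells, at 28.6 and 164 CPM in EPX/CLC cells and at 30.7 and 232 CPM in MYH6-high cells, higher in organoid 33.10 in all 5 classes. Between classes IFI27 did not pass in the main fit. With the organoid as a block it fell against C1Q-positive cells and rose against MPO-high and EPX/CLC cells. The 14 interferon genes summed to 4607 and 4658 CPM in C1Q-negative cells, to 5949 and 9552 CPM in C1Q-positive cells and to 1605 and 3586 CPM in MYH6-high cells. With 1 library per organoid, organoid and library cannot be told apart, and the difference between organoids was not tested.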
